A study of Homo sapiens with 4 samples.

Results

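The genes described here are 9 members of the tight junction and of the apical polarity machinery: OCLN, MARVELD2, MARVELD3, F11R, CRB3, TJP1, TJP3, CGN and PARD3. They were chosen by name, all 9 were found among the 27685 genes of the deposited tables, and the reads of their 32 RefSeq transcripts were summed per gene. RNA-seq was performed on bulk RNA of HT-29 cells, a human colonic epithelial line from a colorectal adenocarcinoma. Control cells carried a control vector and are labelled as wild type, and Myc-TRIM40 cells stably overexpressed TRIM40, an E3 ubiquitin ligase of the tripartite motif family, with a Myc tag. Both groups received no further treatment, and each had 2 libraries, 1 from each of 2 independent experiments. The comparison asks whether RNA of these junction genes differed when TRIM40 was overexpressed. The model is a single cancer cell line, in which the ligase is overexpressed from a stably introduced viral vector.

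Tight junctions seal the space between neighboring epithelial cells close to their apical surface. Occludin (OCLN), tricellulin (MARVELD2) and MARVELD3 are the membrane proteins of the MARVEL family in this seal, with tricellulin concentrated where corners of neighboring cells meet. The junctional adhesion molecule JAM-A (F11R) is an immunoglobulin-type membrane protein. The zonula occludens proteins ZO-1 (TJP1) and ZO-3 (TJP3) and cingulin (CGN) lie beneath the membrane and tie these proteins to the actin cytoskeleton. Crumbs 3 (CRB3) and PAR-3 (PARD3) belong to the complexes that set the apical border and position the junction along the lateral membrane.

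Promoter windows are shown for 6 of the genes. TJP1, CGN and MARVELD2 had the widest differences between the groups, OCLN and TJP3 have transcripts with different starts that are described after the gene totals, and CRB3 held the most E-boxes. They are RefSeq windows of GRCh38.p14 that span 250 bases before to 50 bases after an annotated start, read 5′ to 3′ on the strand of the gene. Capitals mark CAGGTG and its reverse complement CACCTG, the E-box letters bound by repressors of the Snail and ZEB families, which are known for lowering epithelial junction genes. The TJP1 window lies at chr15:29822419-29822718 on the minus strand and holds the start of NM_003257. The CGN window, chr1:151511137-151511436, holds the start of NM_020770, and the MARVELD2 window, chr5:69414866-69415165, holds those of NM_001038603 and NM_001244734, both on the plus strand. The OCLN window, chr5:69492540-69492839, holds the start of NM_001205254, and the TJP3 window, chr19:3721487-3721786, that of NM_001267561, both on the plus strand. The CRB3 window, chr19:6464021-6464320 on the plus strand, holds the starts of NM_139161 and NM_174881. Transcript starts were placed with the GENCODE annotation of GRCh38, which pairs its transcripts with RefSeq identifiers.
TJP1: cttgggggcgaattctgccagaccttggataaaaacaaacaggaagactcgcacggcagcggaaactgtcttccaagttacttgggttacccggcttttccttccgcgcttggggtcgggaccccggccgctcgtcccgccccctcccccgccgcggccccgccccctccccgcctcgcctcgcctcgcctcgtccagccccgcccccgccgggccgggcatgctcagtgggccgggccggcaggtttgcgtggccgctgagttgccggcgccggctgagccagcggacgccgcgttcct
CGN: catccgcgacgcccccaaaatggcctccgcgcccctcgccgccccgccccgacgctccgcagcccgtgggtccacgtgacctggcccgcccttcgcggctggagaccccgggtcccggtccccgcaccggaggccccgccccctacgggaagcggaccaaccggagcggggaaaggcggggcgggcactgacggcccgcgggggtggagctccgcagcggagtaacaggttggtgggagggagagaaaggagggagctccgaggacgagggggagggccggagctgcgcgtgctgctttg
MARVELD2: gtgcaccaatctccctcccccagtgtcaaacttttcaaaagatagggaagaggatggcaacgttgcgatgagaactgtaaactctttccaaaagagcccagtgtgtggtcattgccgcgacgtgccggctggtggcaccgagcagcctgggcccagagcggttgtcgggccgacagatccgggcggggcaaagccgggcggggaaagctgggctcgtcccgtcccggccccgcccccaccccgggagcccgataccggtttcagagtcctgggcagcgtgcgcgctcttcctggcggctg
OCLN: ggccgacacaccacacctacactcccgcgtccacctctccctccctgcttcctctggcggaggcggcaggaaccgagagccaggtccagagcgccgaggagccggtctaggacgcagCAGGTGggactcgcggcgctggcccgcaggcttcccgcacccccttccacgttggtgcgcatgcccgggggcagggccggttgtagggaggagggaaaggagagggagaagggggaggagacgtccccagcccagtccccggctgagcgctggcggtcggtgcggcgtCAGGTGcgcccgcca
TJP3: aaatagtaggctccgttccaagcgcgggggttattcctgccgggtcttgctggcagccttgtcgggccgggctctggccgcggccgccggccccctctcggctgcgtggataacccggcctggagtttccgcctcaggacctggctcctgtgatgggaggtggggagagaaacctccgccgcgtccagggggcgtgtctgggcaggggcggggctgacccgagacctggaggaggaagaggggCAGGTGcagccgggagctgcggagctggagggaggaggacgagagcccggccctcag
CRB3: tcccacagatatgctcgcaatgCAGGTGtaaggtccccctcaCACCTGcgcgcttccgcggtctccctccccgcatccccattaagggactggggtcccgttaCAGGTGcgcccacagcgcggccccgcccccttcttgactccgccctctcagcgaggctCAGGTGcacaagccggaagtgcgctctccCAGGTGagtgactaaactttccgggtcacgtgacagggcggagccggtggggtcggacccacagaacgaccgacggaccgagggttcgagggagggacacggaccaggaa

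Of the windows printed, that of CRB3 held 5 of these E-boxes, OCLN 2, TJP3 1, and TJP1, CGN and MARVELD2 each 0. Of the windows not printed, another OCLN window (chr5:69492297-69492596) and 1 of 3 other TJP1 windows (chr15:29969000-29969299) held 1 each, and the other TJP3 window held 0. Over all 11 windows, which were listed for 6 of the 9 genes (OCLN, TJP1, TJP3, CGN, MARVELD2 and CRB3), 5 held CAGGTG on either strand, against 20.6% of the 35116 windows of all genes. The GC box GGGCGG was in 9 of the 11, against 45.0% of all windows. The TATA letters TATAAA were in 0 of the 11, against 11.5%. These counts describe letters in the windows, several windows belong to the same gene, and binding was not measured. F11R, MARVELD3 and PARD3 are named without a window.

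The 4 libraries held between 60954602 and 67424698 reads. TRIM40 had 0 reads in both Control libraries, and Myc-TRIM40 cells had 272646 reads in experiment 1 and 110665 in experiment 2. In every library 10 of 12 colonic epithelial markers reached an FPKM of 1, with KRT8 and KRT18 the highest, whereas CDH17 and CDX1 stayed below 1. The summed FPKM of these 12 markers was between 7160 and 9937. The 5 fibroblast markers summed to at most 1.36 FPKM with COL1A2, COL3A1 and DCN at 0, the 5 leukocyte markers to at most 3.67 with CD3E at 0, and the 4 endothelial markers to at most 0.134 with CDH5 and KDR at 0.

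Levels between genes were compared by FPKM, the reads scaled by transcript length and library total, summed over the transcripts of a gene. In Control cells F11R was highest with a mean of 52.0 FPKM, from 56.8 in experiment 1 and 47.3 in experiment 2. TJP3, CRB3, TJP1, CGN, PARD3 and MARVELD3 followed with means of 17.4, 15.8, 15.1, 14.2, 12.9 and 11.8. MARVELD2 and OCLN were lowest, with means of 5.25 and 3.25 FPKM. The Control ranges of neighbors in this order were apart for F11R above TJP3 and for MARVELD3 above MARVELD2, and overlapped for every other pair of neighbors, so most of the order within the middle group was not resolved by 2 libraries. JAM-A transcripts therefore exceeded those of every other member in each library, whereas occludin and tricellulin were the least abundant.

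**Figure D1:**
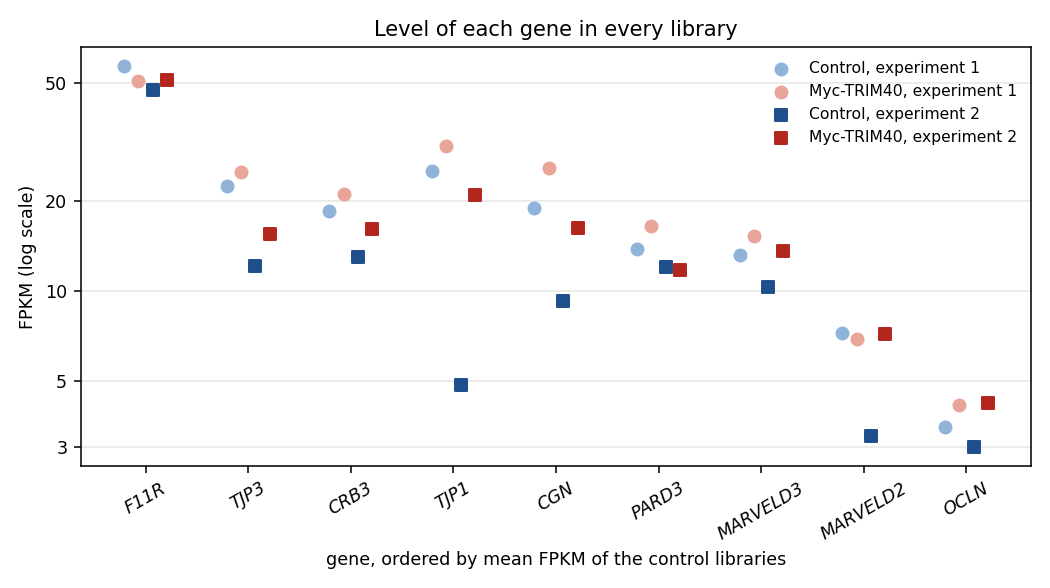
FPKM (log axis) of the 9 genes in each of the 4 libraries, ordered by the mean of the Control libraries, with circles for experiment 1, squares for experiment 2, blue for Control and red for Myc-TRIM40. F11R lies near 50 FPKM in every library, and the Control library of experiment 2 stands low for TJP1, at 4.85 FPKM.

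None of the 9 genes passed the test in the comparison of Myc-TRIM40 with Control cells. All 9 were tested, and 0 had an adjusted p under 0.05 by the edgeR quasi-likelihood test with Benjamini-Hochberg adjustment over 14868 genes, where 0.0605% of genes did. At an unadjusted p under 0.05 there were 2 members, TJP1 and CGN, both higher in Myc-TRIM40 cells, against 4.54% of all genes in either direction and 3.41% in that direction. DESeq2 also called 0 members (0.363% of all genes) and gave the same 2 at an unadjusted p under 0.05 (3.65%), while edgeR without the experiment as a block gave 0 members (1.03%). In bulk RNA, fewer cells that express a gene and less RNA per cell cannot be told apart. The 2 experiments are described as independent, and the p-values measure only the spread between these 4 libraries, with the spread shared across genes by the fit. An exact permutation test of 2 against 2 libraries cannot go below a two-sided p of 0.333.

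The fitted values were above 0 for 8 of the 9 genes and below 0 for F11R. Their median log2 difference was 0.23, against 0.04 over all genes tested. In experiment 1 the median was 0.15 with 7 of 9 above 0, where 50.2% of all genes were above 0, and in experiment 2 it was 0.27 with 8 of 9 above 0, where 52.0% were. The same 7 genes were above 0 in both experiments (28.6% of all genes), and F11R was below 0 in both (26.3%). Both Myc-TRIM40 libraries exceeded both Control libraries for 2 genes, OCLN and MARVELD3, as for 11% of all genes, and both lay below for F11R, as for 9.67%.

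**Figure D2:**
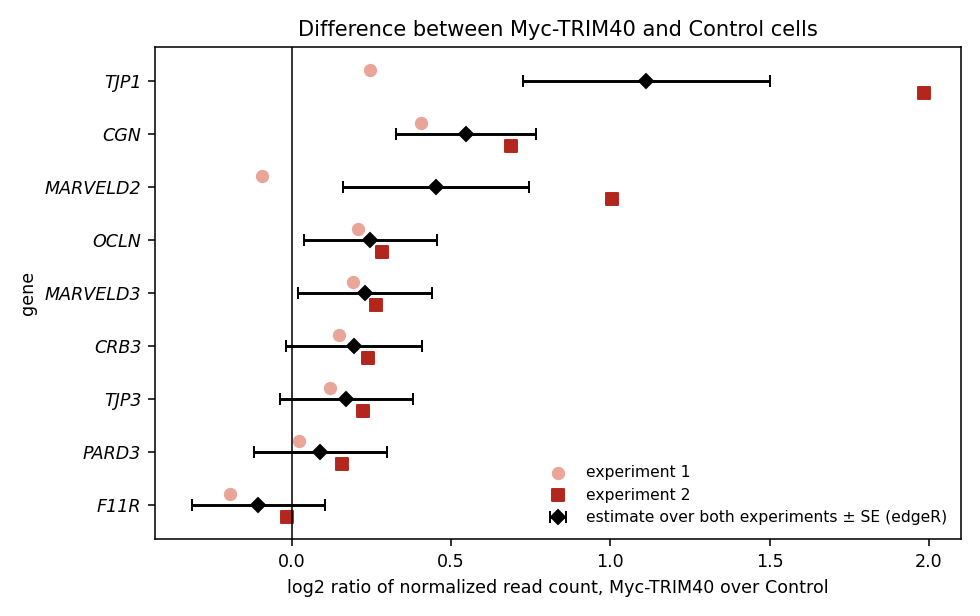
Log2 ratio of normalized read counts, Myc-TRIM40 over Control, for each gene in experiment 1 (circles) and experiment 2 (squares), with the edgeR estimate over both experiments and its standard error (diamonds and bars). TJP1 and MARVELD2 show the widest gap between the experiments, from 0.25 to 1.99 and from -0.09 to 1.01.

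Among the membrane proteins, occludin showed a small difference of similar size in both experiments. OCLN (chr5:68788119-68853931, hg19) had 22.4 CPM (the read count scaled to the library total and TMM factor) in Control and 25.8 in Myc-TRIM40 cells of experiment 1, and 20.9 and 25.5 in experiment 2. The groups did not overlap, and the 2 Control libraries differed by 1.07-fold. The fitted log2 difference was 0.25 ± 0.21 (SE, n = 2 libraries per group; edgeR quasi-likelihood test, Benjamini-Hochberg adjusted p = 0.888), with a 95% interval from -0.23 to 0.72. With the trend on transcript length described later taken out, the mean log2 ratio of both experiments was 0.02, which is not a fitted value. The occludin pseudogene OCLNP1, listed as LOC647859, had 184 and 255 reads in experiment 1 and 162 and 241 in experiment 2, for Control and Myc-TRIM40, beside 1365, 1619, 1334 and 1640 reads of OCLN. Reads of such a copy may be divided between both, and the division is uncertain.

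MARVELD3 (chr16:71660056-71675868) also had groups that did not overlap, at 32.9 and 37.6 CPM in experiment 1 and 28.0 and 33.6 in experiment 2. Its fitted log2 difference was 0.23 ± 0.21 (SE), with an interval from -0.25 to 0.71. F11R (chr1:160964996-160991133) had 281 and 246 CPM in experiment 1 and 249 and 246 in experiment 2. Both Myc-TRIM40 libraries were thus slightly below both Control libraries, by 0.19 and 0.02 on the log2 scale. For JAM-A the fitted value was -0.10 ± 0.21 (SE; interval from -0.58 to 0.37), and in FPKM the groups overlapped, since the Control library of experiment 2 had the lowest level. Adjusted p-values of MARVELD3 and F11R were 0.888 and 0.944 by edgeR with Benjamini-Hochberg adjustment.

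Tricellulin differed between the experiments. MARVELD2 (chr5:68710939-68737890) had 16.0 and 14.9 CPM in Control and Myc-TRIM40 cells of experiment 1, and 7.70 and 15.5 in experiment 2. A single library, Control of experiment 2, was low, and the other 3 lay between 14.9 and 16.0. The 2 Control libraries differed by 2.07-fold, and Myc-TRIM40 differed from Control within experiment 2 by 2.01-fold. The fitted log2 difference was 0.45 ± 0.29 (SE; edgeR quasi-likelihood test, Benjamini-Hochberg adjusted p = 0.888), with an interval from -0.21 to 1.12, and without experiment 2 it was -0.09.

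CRB3 (chr19:6463788-6467230), the membrane anchor of the Crumbs polarity complex, had 19.8 and 21.9 CPM in experiment 1 and 13.9 and 16.4 in experiment 2. Within each experiment the Myc-TRIM40 library was the higher, by 0.15 and 0.24 on the log2 scale, while the groups overlapped because both libraries of experiment 2 were lower. PARD3 (chr10:34398488-35104253), the scaffold that recruits atypical protein kinase C and PAR-6 to the junction, had 75.8 and 77.0 in experiment 1 and 56.9 and 63.5 in experiment 2. Both polarity genes thus differed less between the groups than between the experiments. Their fitted log2 differences were 0.19 ± 0.21 (interval from -0.29 to 0.68) for CRB3 and 0.09 ± 0.21 (from -0.39 to 0.57) for PARD3.

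Among the scaffolds, ZO-1 had the highest fitted value of the 9 genes, and this value came mostly from experiment 2. TJP1 (chr15:29991571-30261002) had 203 CPM in Control and 240.1 in Myc-TRIM40 cells of experiment 1, and 41.7 and 165 in experiment 2. The low library was again Control of experiment 2, and the groups overlapped, as the Myc-TRIM40 library of experiment 2 lay below the Control library of experiment 1. The ratio was 1.19-fold in experiment 1 and 3.96-fold in experiment 2, and the 2 Control libraries differed by 4.86-fold. The fitted log2 difference was 1.11 ± 0.39 (SE, n = 2 libraries per group), with an interval from 0.23 to 2.00. Its adjusted p was 0.888 by edgeR with Benjamini-Hochberg adjustment (unadjusted p = 0.0193) and 0.258 by DESeq2, and without the experiment as a block the unadjusted p was 0.342. The adjusted p lay between 0.258 and 1.00 over the alternatives.

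CGN (chr1:151483862-151511167), cingulin, was higher in Myc-TRIM40 cells in each experiment. It had 99.7 and 132 CPM in experiment 1, a ratio of 1.33-fold, and 51.6 and 83.2 in experiment 2, a ratio of 1.61-fold. Control of experiment 2 was the lowest library, and the Myc-TRIM40 library of experiment 2 was lower than the Control library of experiment 1, so the groups overlapped. The Control libraries differed by 1.93-fold. The fitted log2 difference was 0.55 ± 0.22 (SE), with an interval from 0.05 to 1.05, an unadjusted p of 0.0360 and an adjusted p of 0.888 by edgeR with Benjamini-Hochberg adjustment. Without the block the unadjusted p was 0.278, and the adjusted p was between 0.804 and 1.00 over the alternatives.

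TJP3 (chr19:3708335-3750811), ZO-3, had 72.0 and 78.3 CPM in experiment 1 and 41.2 and 48.2 in experiment 2. Both libraries of experiment 2 were below both of experiment 1. Its fitted log2 difference was 0.17 ± 0.21 (SE), with an interval from -0.31 to 0.65 and an adjusted p of 0.904 by edgeR with Benjamini-Hochberg adjustment. The end of TJP3 overlaps APBA3, which had 773 and 724 reads in experiment 1 and 537 and 498 in experiment 2, beside 4399, 4907, 2628 and 3099 for TJP3. The paper names a stranded library kit (TruSeq Stranded mRNA). Whether strand was used in the counting is not given in the sources used here.

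By the ratio of FPKM + 1 within an experiment, 0 members reached 1.5-fold in both experiments, as 0.457% of all genes did upward and 0.0874% downward. In experiment 1 there were 0 members past 1.5-fold, against 2.78% of all genes upward. In experiment 2 there were 3, TJP1, CGN and MARVELD2, against 8.54%. At 1.2-fold in both experiments there were 2, TJP1 and CGN, against 3.42% of all genes upward.

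The Control library of experiment 2 was lower than that of experiment 1 for 9 of the 9 genes, where 49.6% of all genes were. The median log2 difference between these 2 Control libraries was -0.51 for the 9 genes and 0.01 for all genes. Among the other tight junction genes, listed later, 12 of 18 tested were also lower, with a median of -0.52. Among the other polarity genes 15 of 21 tested were lower, with a median of -0.23. With the trend on length described below taken out, 7 of the 9 genes were lower, with a median of -0.58. Between the 2 Myc-TRIM40 libraries, 7 of 9 were lower in experiment 2, with a median of -0.28, where 53.5% of all genes were lower, with a median of -0.04. The ratios of TJP1, CGN and MARVELD2 in experiment 2 were taken against this lower Control library, whose part in the result was not tested.

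The log2 ratio also varied with transcript length in experiment 2. Its Spearman correlation with length across the 14868 genes was 0.588 in experiment 2 and 0.078 in experiment 1, where all genes share the same 2 libraries and cannot be counted as replicates. For Control of experiment 2 over Control of experiment 1 the correlation was -0.475. The median of that log2 ratio went from 0.59 under 1000 bases to -0.74 at 6000 bases and over. Between the Myc-TRIM40 libraries, experiment 2 over experiment 1, it went from 0.065 to -0.28. In experiment 2 the median ratio went from -0.55 for the 1367 genes under 1000 bases to 0.54 for the 1852 genes of 6000 bases and over. TJP1, at 7853 bases on average, and CGN, at 5101 bases, are long, whereas MARVELD2, at 2156 bases, belongs to a length class with a median of -0.08. With the trend on length taken out, TJP1 was 0.22 in experiment 1 and 1.46 in experiment 2, CGN was 0.38 and 0.37, and MARVELD2 was -0.09 and 1.16. OCLN, of 6228 bases, became 0.18 and -0.13, CRB3, of 1057 bases, 0.17 and 0.73, and MARVELD3 0.19 and 0.35. TJP3 was 0.11 and 0.17, PARD3 0.00 and -0.17, and F11R -0.22 and -0.31. The part of this trend in the results was not tested beyond these values.

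**Figure D3:**
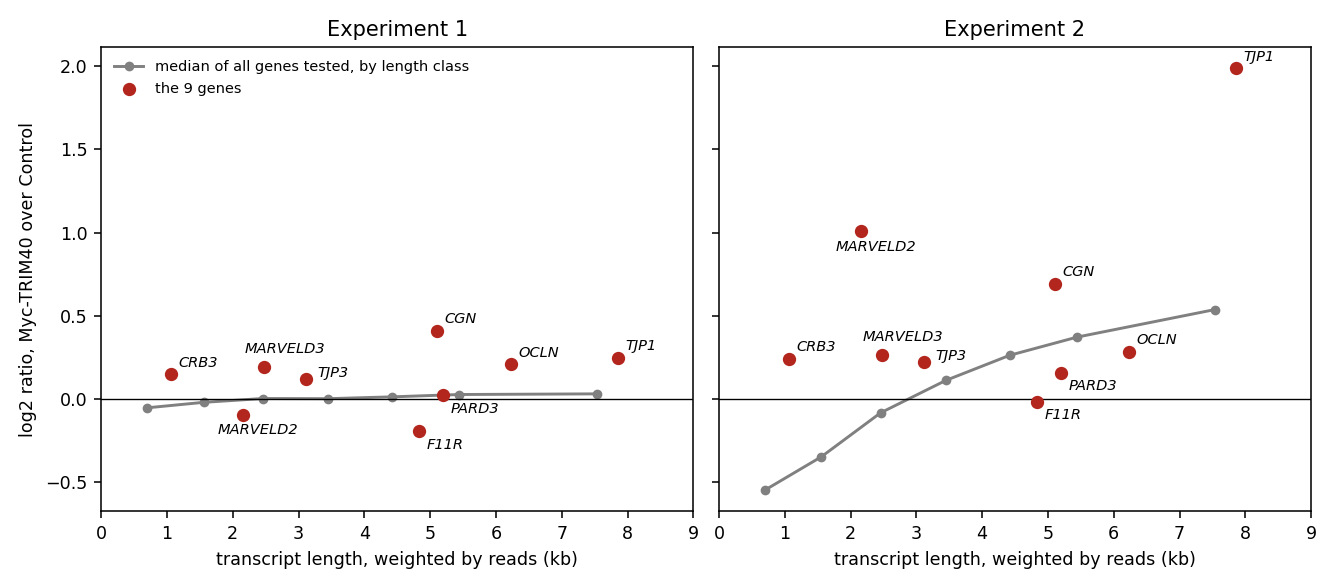
Log2 ratio of normalized read counts, Myc-TRIM40 over Control, against read-weighted transcript length (kilobases) in experiment 1 (left) and experiment 2 (right), with the 9 genes in red and the median of all tested genes by length class in grey. The grey line is flat in experiment 1 and goes from -0.55 to 0.54 in experiment 2, where TJP1 and MARVELD2 lie at 1.99 and 1.01.

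Of the 32 member transcripts, 29 were tested among 33773, and 0 were called by edgeR with Benjamini-Hochberg adjustment, as were 0.0% of all transcripts. At an unadjusted p under 0.05 there were 0 by edgeR and 6 by DESeq2, which called 0 as well, against 2.76% of all transcripts by edgeR and 6.71% by DESeq2, which called 0.98% of all transcripts. Reads of a transcript are estimates, since transcripts of a gene share most of their exons, and 2 member transcripts had 0 reads in every library. Of the 25 transcripts that took at least 10% of the reads of their gene in some library, 10 moved in opposite directions in the experiments. Directions were taken from reads that were not normalized, with no minimum difference, and the share over all transcripts was not counted.

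For ZO-3 the transcripts differ in their start. NM_001267560, which starts upstream, had 1351 and 2231 reads in Control and Myc-TRIM40 cells of experiment 1 and 397 and 996 in experiment 2. NM_001267561, which starts in the window printed above, had 3048 and 2676 in experiment 1 and 2231 and 2103 in experiment 2. The upstream-start transcript was thus the higher in Myc-TRIM40 cells in each experiment, while the other was slightly lower. Their fitted log2 differences were 1.04 ± 0.32 (SE; unadjusted p = 0.0635, adjusted p = 0.977 by edgeR with Benjamini-Hochberg adjustment) and -0.13 (unadjusted p = 0.563), and the difference between the transcripts was not tested.

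For occludin, NM_002538 had 297 and 178 reads in experiment 1 and 993 and 548 in experiment 2. NM_001205254, whose start lies in the printed window, had 1050 and 1416 in experiment 1 and 341 and 712 in experiment 2. The first was lower and the second higher in Myc-TRIM40 cells in each experiment, with fitted log2 differences of -0.79 ± 0.32 and 0.76 ± 0.35 (SE; edgeR unadjusted p = 0.110 and 0.137). NM_001205255 had 18 and 25 reads in experiment 1 and 0 and 380 in experiment 2. The main transcript of OCLN was therefore a different one in the 2 Control libraries.

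For ZO-1, NM_003257 had 2728 and 3812 reads in experiment 1 and 998 and 3700 in experiment 2. NM_175610 had 2478 and 3844 in experiment 1 and 801 and 3333 in experiment 2, and NM_001330239 had 4055 and 5023 and then 848 and 3508. These 3 transcripts, which share a start, were higher in Myc-TRIM40 cells in both experiments. NM_001301026, which starts at another site, had 3111 and 2379 reads in experiment 1 and only 12 and 90 in experiment 2, and NM_001301025 had 0 reads in every library. The sum of TJP1 therefore holds a transcript that was abundant in experiment 1 and nearly missing in experiment 2.

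PARD3 has 11 listed transcripts, and the division of its reads also differed between the libraries. NM_001184792, one of the shorter forms at 3518 bases, had 345 and 1708 reads in experiment 1 and 1814 and 402 in experiment 2. NM_001184786 had 864 and 493 in experiment 1 and 213 and 913 in experiment 2, and NM_019619 had 666 and 313 and then 251 and 657. The directions were opposite between the experiments for each of these 3, while the sum over the gene stayed between 3627 and 4830 reads. NM_001184785 moved like NM_001184786 and NM_019619, with 550 and 308 and then 178 and 629. The longer forms did not all move together. NM_001184788 was lower in Myc-TRIM40 cells in both experiments, with 590 and 383 and then 419 and 353. NM_001184787 was higher in both, with 356 and 774 and then 204 and 348. In FPKM, which divides by length, PARD3 was 12.0 and 11.8 in experiment 2 although its normalized reads were higher in Myc-TRIM40 cells.

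**Figure D4:**
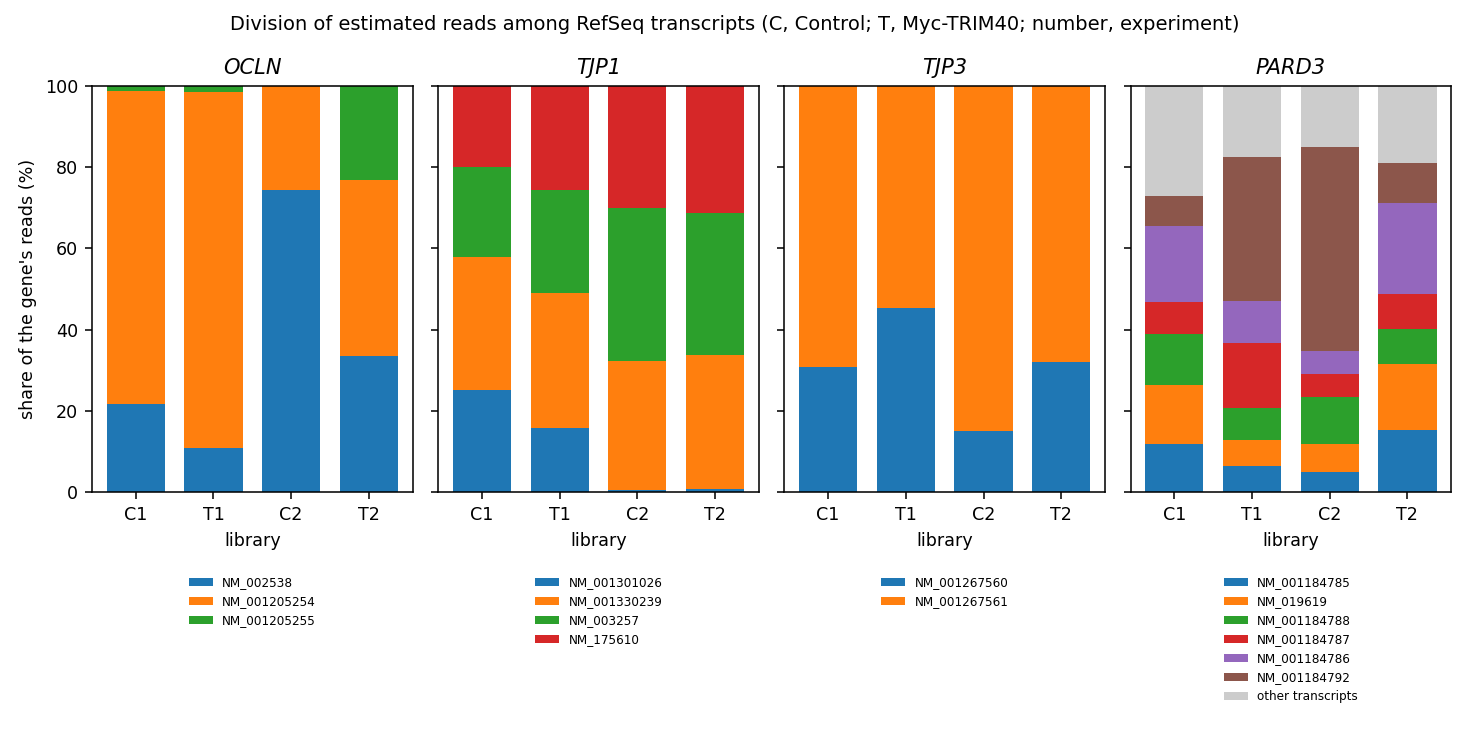
Share (%) of the estimated reads of OCLN, TJP1, TJP3 and PARD3 taken by each RefSeq transcript in the 4 libraries, where C is Control, T is Myc-TRIM40, the number is the experiment and grey collects the smaller transcripts. NM_002538 of OCLN takes 297 of 1365 reads in Control of experiment 1 and 993 of 1334 in Control of experiment 2.

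For Crumbs 3, NM_139161 had 868 and 865 reads in experiment 1 and 466 and 674 in experiment 2, NM_174881 had 253 and 335 and then 330 and 291, and NM_174882 had 85 and 173 and then 87 and 88. The major CRB3 form was thus level in experiment 1 and higher in Myc-TRIM40 cells in experiment 2. For tricellulin, NM_001038603 had 880 and 813 reads in experiment 1 and 400 and 887 in experiment 2, and NM_001244734 had 94 and 124 and then 91 and 109. The low Control library of MARVELD2 thus came from its major transcript. For MARVELD3, NM_052858 had 1007 and 1272 and then 1067 and 1245 reads, NM_001017967 had 794 and 996 and then 690 and 863, and NM_001271329 had 210 and 92 and then 26 and 55. Both major forms of MARVELD3 were higher in Myc-TRIM40 cells in both experiments. Nearly all reads of F11R belonged to NM_016946, with 17171 and 15331 and then 15551 and 15836, and CGN has only NM_020770.

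A list of 47 other tight junction and polarity genes gave the surroundings of the 9. Of these, 39 were tested and 0 were called in either direction by edgeR, and 4 (MPDZ, IGSF5, JAM2 and LIN7A) had 0 reads in every library. At an unadjusted p under 0.05, 3 were higher and 1 was lower (3.41% and 1.13% of all genes), and 25 of 39 were above 0 with a median of 0.07. Among the 18 tested tight junction genes 14 were above 0 with a median of 0.28, and among the 21 tested polarity genes 11 were above 0 with a median of 0.02. By the ratio of FPKM + 1, 0 reached 1.5-fold in both experiments.

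Of the 5 with the highest level, 4 are given here: LSR, the angulin that brings tricellulin to cell corners, YBX3, the ZO-1-associated factor ZONAB, the polarity GTPase CDC42 and the basolateral polarity scaffold SCRIB. Their fitted log2 differences were -0.12 ± 0.22, -0.24 ± 0.21, -0.11 ± 0.20 and -0.20 ± 0.21 (SE), and none of these 4 passed the test. The 4 genes at an unadjusted p under 0.05 were named after their values were seen. CGNL1 (paracingulin), PARD3B and AMOTL2 (an angiomotin) had log2 differences of 0.98, 0.95 and 0.53, and RAB13, a GTPase of junction assembly, had -0.60, each with an adjusted p of 0.888 by edgeR with Benjamini-Hochberg adjustment. CGNL1 and PARD3B were at most 0.926 FPKM in every library.

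**Figure D5:**
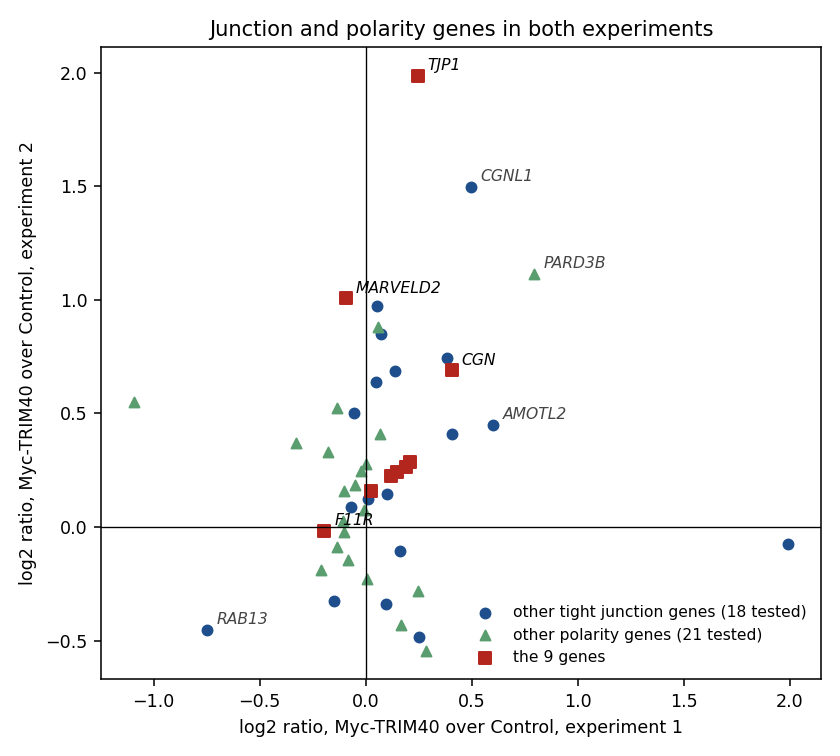
Log2 ratio of normalized read counts, Myc-TRIM40 over Control, in experiment 1 (horizontal) and experiment 2 (vertical) for the 9 genes (red squares) and 39 other tight junction (blue circles) and polarity (green triangles) genes. The 9 genes lie mostly in the upper right with 7 of 9 above 0 in both experiments, and TJP1 has the highest ratio in experiment 2 at 1.99.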

How the data were processed

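RNA-seq libraries of 2 Control and 2 Myc-TRIM40 cultures of HT-29 cells were used, and other experiments of the study were not analysed here. The authors deposited estimated counts per RefSeq transcript as whole numbers, not normalized, which needed no rounding. They also deposited FPKM, the count per transcript length and library total, for both experiments and TPM for experiment 2, and transcript lengths. The submitters' processing notes name HISAT2 2.1.0, StringTie 1.3.4d and hg19. Each table holds 1 Control and 1 Myc-TRIM40 library, and 0 columns of other samples were found.

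Transcripts (63714) were summed per gene identifier. edgeR 4.0.16 (R 4.3.3; filterByExpr, TMM, glmQLFit and glmQLFTest, Benjamini-Hochberg adjustment over 14868 genes) was fitted with the experiment as a block, with a common dispersion of 0.0484 and 1 residual degree of freedom. The pairing comes from the replicate numbers of the labels and the tables, and deviations of same-numbered libraries from their group means correlated at 0.588. CPM are counts scaled to the TMM-adjusted library total. Ratios within an experiment compare 1 library with 1 library and have no error. Depth was at least 60954602 reads, so the number of experiments limits the precision more than counting. The fits were run on simulated data that held no trend on transcript length, so that run does not show how they behave with such a trend.

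Alternatives were no block, DESeq2 1.42.0, upper-quartile normalization, no filter, limma 3.58.1 on log2(FPKM + 1), overlapping genes summed, other pseudocounts, thresholds and minimum levels for the ratio, and each experiment left out. Taking out a lowess trend on transcript length (fraction 0.3, statsmodels 0.14.6) was chosen after seeing the data. It was applied to the log2 ratios within each experiment, and a single value per gene is their mean over both experiments. No edgeR fit was run with this trend taken out. Members, lists and motifs were chosen with earlier results of these data known. All members are named, as are transcripts with at least 10% of the reads of their gene in some library. Of the other junction genes, those called, those past 1.5-fold the same way in both experiments and the 5 with the highest mean FPKM are named, as are the 3 genes nearest to OCLN in pattern. Some results that these rules cover are left out. The pseudogene OCLNP1 and the overlapping gene APBA3 were added because they may share reads with members. Promoter windows are from RefSeq (GRCh38.p14), and gene positions are those of the deposited tables (hg19).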

Additional observations from a re-analysis of the deposited data

How the results depend on the processing

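The count of members called was 0 in every fit, and 8 of the 9 were above 0 in each. The median log2 difference of the members was between 0.203 (DESeq2) and 0.282 (limma), 0.266 without experiment 1, 0.149 without experiment 2 and 0.268 with the length trend taken out. With the replicate block left out, the median was 0.227, and the count of all genes called went from 6 higher and 3 lower to 0 and 0 (128 and 25 at an unadjusted p under 0.05). It was 45 and 9 with DESeq2, 0 and 0 with no filter on low counts (343 and 104 at an unadjusted p under 0.05), 3 and 0 with limma (587 and 134 unadjusted), and 10 and 3 with overlapping genes summed. The cause was not tested. Without the block, 0 members had an unadjusted p under 0.05, and with no filter 1 did.

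The members past 1.5-fold in both experiments numbered 0, became 2 at 1.2-fold, and were between 0 and 3 when a single experiment was used (3 in experiment 2 alone). MARVELD2 went from 0.45 to -0.0943 without experiment 2 and to 1.0066 without experiment 1, and PARD3 from 0.09 to -0.0855 with the length trend taken out. Under the same alternative OCLN went from 0.25 to 0.0238, CRB3 from 0.19 to 0.4518 and F11R from -0.10 to -0.2627. Leaving out an experiment leaves 1 library per group and no residual degrees of freedom, so no calls could be made there.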

Other observations

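The genes with the pattern most like OCLN over the 4 libraries, by Euclidean distance of centered log2 CPM, were SENP5 (0.0226), LINC01376 (0.0315) and RMND5A (0.0350). LINC01376 was near the floor, with at most 0.383 CPM in any library. SENP5, a SUMO protease, had 34.5 and 39.2 CPM in experiment 1 and 31.7 and 39.3 in experiment 2, for Control and Myc-TRIM40. With only 4 libraries, 141 genes lay within a distance of 0.1 of OCLN.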
